A study of Danio rerio with 7 samples.

Results

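Cardiomyocytes of the adult zebrafish ventricle were split, within each wild-type plate, into cells with and cells without a transcript of nppa (ENSDARG00000052960). The nppa gene codes for atrial natriuretic peptide, a hormone of heart muscle that is made broadly in the embryonic heart and made again in stressed or injured ventricle. Its relative nppb codes for the brain-type natriuretic peptide, and both are commonly used to mark cardiomyocytes that border an injury. MYL7 here stands for the gene of the cardiac myosin regulatory light chain, one of the most abundant transcripts of fish heart muscle. In RefSeq's zebrafish assembly GRCz12tu, nppa and nppb are neighbours with 0 genes between them.

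The cells came from fish that carry the reporter Tg(nppa:mCitrine), in which regulatory sequence of nppa drives a fluorescent protein. All hearts had been cryoinjured and were taken 7 days later, and single cells bright for the reporter were sorted into plates of 384 wells. Both sides of the split therefore passed the same reporter gate, and cells without a sequenced nppa transcript are not cells outside it. The wild-type group is hmga1a+/+ (3 plates); a further 4 plates of hmga1a-/- fish, with the same reporter, injury and time, are set beside it where the same contrast could be made in plates that the wild-type split did not use. The labels state 12 hearts per genotype, give no age beyond adult, and do not tie a plate to an animal, so each p-value below rests on plate-to-plate spread, which could be technical only. Plates are numbered in accession order; wild-type plate 1 was sequenced on another flow cell than plates 2 and 3.

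Members were selected on measured transcripts of MYL7 and nppa, so levels of those genes are a description here. A well was used when it held at least 1000 transcripts and MYL7 made up at least 2% of them. Spike-ins and genes with a mitochondrial symbol were left out of these totals. Of 1152 wild-type wells 499 were deep enough, and 471 also passed the MYL7 threshold. These were 24.0% of the wells of plate 1 (92 cells), 50.3% of plate 2 and 48.4% of plate 3. Each of these cells was thinned at random to 1000 transcripts before the split, so that a deeper cell had no better chance of showing nppa. Thinning evens out depth only, and a transcript that fills much of a cell leaves fewer draws for nppa. The split gave 91 cells with nppa and 380 cells without it. The cells nearest to the MYL7 threshold held 1.955%, 1.246% and 1.578% below it and 2.513%, 2.533% and 2.621% above it in plates 1 to 3. Well totals nearest to the depth threshold were 994, 998.5 and 997.1 transcripts below it and 1000, 1026 and 1014 above it. The tables name cells by well position, so all 384 names recur in every plate and say nothing about shared cells.

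In plate 1, 18 of 92 cells held nppa, a share of 19.6% (95% exact binomial interval 12.0% to 29.1%). In plate 2 it was 35 cells, 18.1% (12.97% to 24.3%), and in plate 3 it was 38 cells, 20.4% (14.9% to 26.9%). The intervals cover counting error only and overlap in all 3 plates. These shares are what the rule chose and carry no test. Most positive cells rested on a single molecule: 12 of 18, 27 of 35 and 26 of 38 cells held exactly 1 nppa transcript among 1000, and the highest number in a cell was 8. In the mutant plates, thinned alike, 33.9%, 36.4%, 26.2% and 26.8% of cells held nppa.

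At full depth nppa was seen in 31, 76 and 76 wild-type cells, which is 33.7%, 39.4% and 40.9%. Of the 380 cells placed on the side without nppa, 92 (24.2%, interval 19.99% to 28.8%) held at least 1 nppa transcript before thinning. The side without nppa thus also holds cells in which the transcript was present but not drawn. Wells that were deep enough but below the MYL7 threshold were set beside the cardiomyocytes, although they had passed the reporter gate too. Among them, 1 well of plate 2 held 11 nppa transcripts after thinning, more than any wild-type cardiomyocyte. These wells therefore do not measure stray nppa alone. In these wells, thinned alike, 3 of 28 held nppa (10.7%, interval 2.27% to 28.2%), at median depths of 3873, 2000 and 2676 transcripts. The interval pools wells of 3 plates and covers counting error only. It overlaps the 19.3% of cardiomyocytes, and the part of free RNA in the positive cells was not tested.

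**Figure D1:**
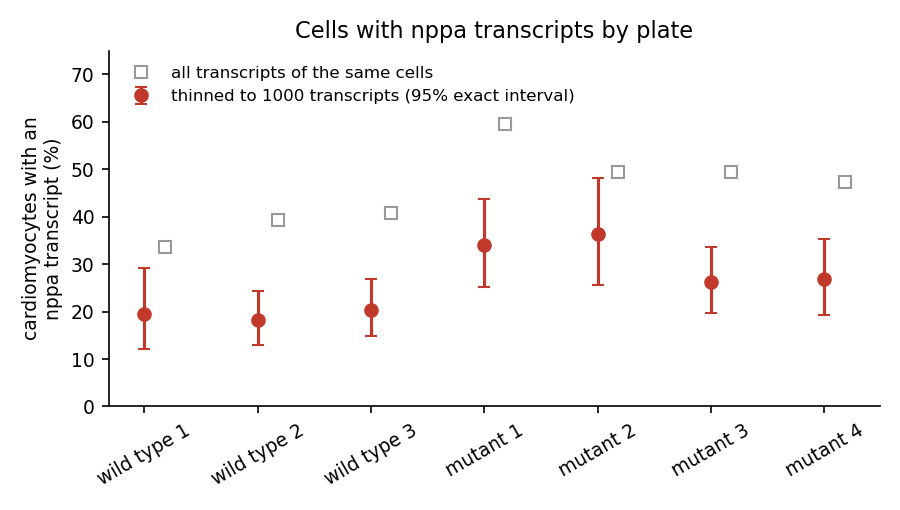
Share of cardiomyocytes with an nppa transcript in each plate, in percent; filled points are cells thinned to 1000 transcripts with their 95% exact binomial interval, and open squares are all transcripts of the same cells. The 3 wild-type plates lie between 18.1% and 20.4% after thinning and between 33.7% and 40.9% without it.

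Depth differed between the sides within plates, with no common direction. The median cell with nppa held 1849, 3425 and 2373 transcripts before thinning, and the median cell without it 1481, 2612 and 2582. It was higher with nppa in plates 1 and 2 and lower in plate 3, with means of 2549 ± 803 and 2225 ± 644 (SD, n = 3; exact sign-flip permutation p = 0.5, two-sided). With 3 pairs this test cannot go below 0.25. After thinning, the median cell with nppa showed 348.8 ± 15.1 genes and the median cell without it 335.3 ± 13.5 (SD, n = 3 plates). The number was higher with nppa in all 3 plates, by 13.5 genes on average (exact permutation p = 0.25, the smallest possible). This count includes nppa itself, which by the rule adds 1 gene to every cell with nppa and none to the others. The share of transcripts on 13 genes with a mitochondrial symbol was 1.26% with nppa and 1.23% without it (exact permutation p = 1.0). The sign of the difference varied between plates. Transcripts per spike-in molecule stood at 1.46 and 1.23, higher with nppa in 2 of 3 plates (exact permutation p = 0.5).

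The sums of the 6 libraries (3 plates, 2 sides) were compared gene by gene with edgeR's quasi-likelihood test with plate as a block, leaving nppa out. Libraries of cells with nppa summed to 17974, 34955 and 37934 transcripts and those without it to 74000, 158000 and 148000. The filter on low counts, about 1.79 transcripts per 10000 in at least 3 libraries, left 528 genes. None of the 528 passed a Benjamini-Hochberg adjusted p under 0.05 (0.0% called), and the smallest adjusted p was 0.402. At an unadjusted p under 0.05 there were 26 genes (4.92%), 13 higher (2.46%) and 13 lower (2.46%) with nppa. DESeq2 and limma also called 0 genes (0.0%), with 6 (1.14%) and 31 genes (5.87%) at an unadjusted p under 0.05. The median standard error (SE) of a log2 fold change was 0.30. Levels on both sides did not overlap for 50 genes (9.47% of those tested). A gene was higher with nppa in all 3 plates in 56 cases (10.6%) and lower in all 3 in 80 cases (15.2%).

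**Figure D2:**
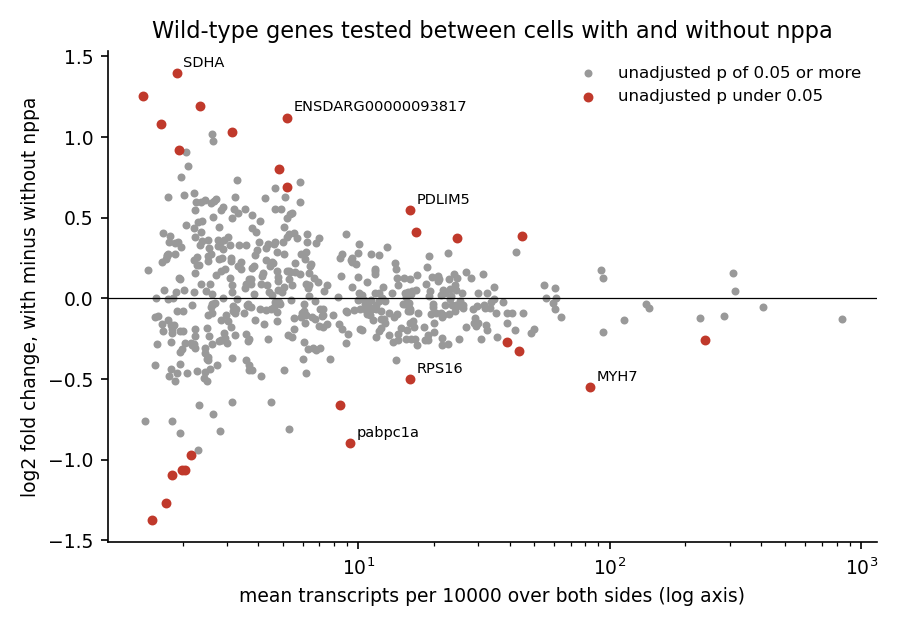
Log2 fold change (with minus without nppa) against the mean level in transcripts per 10000 on a log axis, for the 528 genes tested in wild-type cells; red points have an unadjusted p under 0.05. The 26 red points are spread over low and high levels, and no gene passed the adjusted threshold.

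The genes described next were named by a rule on p and sign: since 0 genes were called, they are the 12 genes in each direction with the smallest unadjusted p among those with the same sign in all 3 plates. They are given as not called, and the rule makes their direction and small p a matter of choice. All levels are transcripts per 10000 within a plate and side. Thinning was repeated with 10 other random seeds, which redraws each cell and shifts cells between sides. Of the 24 genes, 18 passed the filter in all 11 draws (the first draw and 10 others), and 9 of these 18 had the same sign in every draw. The other 6 (SDHA, PPP1CB, eif1axb, foxo3b, NAMPT and kcnj14) were tested in 1 to 9 draws, so their sign could not be followed through all of them. Of the 24, 13 lay over the filter's cutoff in all 6 libraries, while 2 reached it through the side with nppa alone and 4 through the other side alone.

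Among genes of the contractile apparatus, MYH7 (ENSDARG00000079782), which carries the human name of the slow cardiac myosin heavy chain, had the smallest p of all genes. Its level with nppa was 44.5, 81.8 and 79.1 in plates 1 to 3, against 85.7, 97.9 and 113.5 without nppa. Every plate was lower with nppa and the sides did not overlap. The log2 fold change was -0.55 (SE 0.13; edgeR adjusted p = 0.402). MYH7 had an unadjusted p under 0.05 in 10 of 11 draws and passed the adjusted threshold in 2 of them, with log2 fold changes from -0.64 to -0.25. By the number of nppa transcripts drawn, cells with 0, 1 and 2 or more held 85.7, 49.2 and 35.1 of MYH7 in plate 1. The same order was 97.9, 88.2 and 60.1 in plate 2 and 113.5, 82.4 and 71.9 in plate 3, a description with no test. Of the 24 named genes, 5 ran in the order of their direction in all 3 plates (MYH7, pabpc1a, EIF3CL, PYGM and adprhl1). For the last 2 the order in plate 1 came only from leaving nppa out of the totals (PYGM: 4 of 11988 and 2 of 5986 transcripts). All 24 had been chosen for their difference between 0 and more nppa transcripts, and the order was not counted over all genes. Others did not run in order: PDLIM5 held 13.9, 21.7 and 15.04 in plate 1, and ENSDARG00000093817 held 2.47, 6.30 and 3.76 in plate 2. In cells split on unthinned nppa the log2 fold change of MYH7 was -0.22 (edgeR adjusted p = 0.397).

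MYL7, which was used to select cells on both sides, stood at 846, 784 and 764 with nppa and at 996, 834 and 792 without it. It was lower with nppa in each plate, but the sides overlapped. The log2 fold change of MYL7 was -0.13 (SE 0.07), given as a description only. PDLIM5, a protein of the Z-disc that anchors actin filaments, lay the other way. Its level was 19.5, 18.3 and 19.5 with nppa and 13.9, 12.9 and 12.4 without nppa, with no overlap. The log2 fold change was 0.55 (SE 0.15; edgeR adjusted p = 0.402), and the unadjusted p was under 0.05 in 6 of 11 draws. At least 1 PDLIM5 transcript was present in 77.8%, 80% and 78.9% of cells with nppa and in 59.5%, 57.6% and 55.4% of cells without it. MYL9 (ENSDARG00000008030), which carries the human name of a smooth muscle myosin light chain, had a log2 fold change of 0.38, and DES (ENSDARG00000058656), the gene of desmin, the intermediate filament of muscle, had 0.69. Both were higher in each plate, and the sign of DES turned in 3 of 11 draws.

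Some named genes of both directions have roles in energy supply. SDHA, the catalytic subunit of succinate dehydrogenase, had the highest fold of the named genes, at 2.23, 4.01 and 2.11 with nppa and 0.676, 1.33 and 1.01 without it. Its log2 fold change of 1.40 (SE 0.41, edgeR adjusted p = 0.528) rested on 26 transcripts with nppa. SDHA passed the filter in 1 of 11 draws only, and there through the side with nppa alone, which favours a high fold. ACADVL, the first enzyme of very long-chain fatty acid oxidation, stood at 17.2, 20.3 and 20.8 with nppa and 12.6, 14.5 and 16.6 without it, a log2 fold change of 0.41. ATP5F1A, a subunit in the catalytic core of the mitochondrial ATP synthase, stood at 55.6, 52.1 and 46.1 with nppa and 32.7, 39.4 and 43.6 without it, a log2 fold change of 0.39. Sides did not overlap for either gene, but at a depth of 2000 transcripts per cell their log2 fold changes were -0.011 and -0.038. PYGM (ENSDARG00000013317), muscle glycogen phosphorylase, had a log2 fold change of 1.03 at 1.08 to 6.01 transcripts per 10000. Its sign turned in 3 of 11 draws, with log2 fold changes from -0.33 to 1.03.

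On the other side, ENO3, the muscle enolase of glycolysis, stood at 27.3, 45.5 and 43.2 with nppa and 30, 56.5 and 58.6 without it, a log2 fold change of -0.33. It was lower within each plate, while the sides overlapped because plate 1 was low on both. AK1, adenylate kinase, had -0.27, and COX7A2, a subunit of cytochrome c oxidase, had -1.27 on 9 transcripts with nppa. COX7A2 passed the filter through the side without nppa alone, which favours a negative sign. ENO3 kept its sign in 11 of 11 draws, but turned to 0.11 when the abundant transcript ENSDARG00000080337 was left out of totals and thinning, and AK1 to 0.016.

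Of the genes named as lower, pabpc1a, RPS16, eif1axb and EIF3CL have roles in translation, and none was called. The level of pabpc1a, a cytoplasmic poly(A)-binding protein, was 5.01, 5.72 and 7.91 with nppa and 15.4, 10.7 and 11.1 without it. Every value with nppa lay below every value without it. The log2 fold change was -0.90 (SE 0.24; edgeR adjusted p = 0.402), with an unadjusted p under 0.05 in 10 of 11 draws and a call in 1. Cells with 0, 1 and 2 or more nppa transcripts held 15.4, 7.51 and 0 in plate 1, 10.7, 6.30 and 3.76 in plate 2, and 11.1, 9.24 and 5.02 in plate 3. RPS16, a protein of the small ribosomal subunit, stood at 13.9, 12.3 and 13.7 with nppa and 20.8, 19.1 and 16.8 without it, a log2 fold change of -0.50, and its sign turned in 1 of 11 draws. Its level did not follow the number of nppa transcripts: cells with 0, 1 and 2 or more held 20.8, 10.8 and 20.05 in plate 1. The initiation factor genes eif1axb and EIF3CL had -1.37 and -1.06 at levels under 3 transcripts per 10000. Both passed the filter through the side without nppa alone, which favours a negative sign.

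ENSDARG00000093817, a gene without a symbol in the name table, was named on the higher side. Its level was 9.46, 5.72 and 6.06 with nppa and 5.14, 2.47 and 2.5 without nppa, higher in each plate and without overlap. The log2 fold change was 1.12 (SE 0.30; edgeR adjusted p = 0.402). In 11 draws its log2 fold change lay between 0.76 and 1.56, with an unadjusted p under 0.05 in 10 and a call in 3. It was also called on sums of unthinned transcripts (log2 fold change 1.35, adjusted p = 0.0190 by edgeR) and on the split by unthinned nppa (1.38, adjusted p = 0.0378 by edgeR). These draws and settings reuse the same cells, and the unthinned split gives a deeper cell a better chance of showing nppa. A transcript was present in 38.9%, 22.9% and 26.3% of cells with nppa, against 16.2%, 11.4% and 12.2% of cells without it. On the side with nppa 1 cell held 8 of 17 transcripts in plate 1, and 1 cell held 9 of 20 in plate 2. On the side without nppa 1 cell held 15 of 38 in plate 1.

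**Figure D3:**
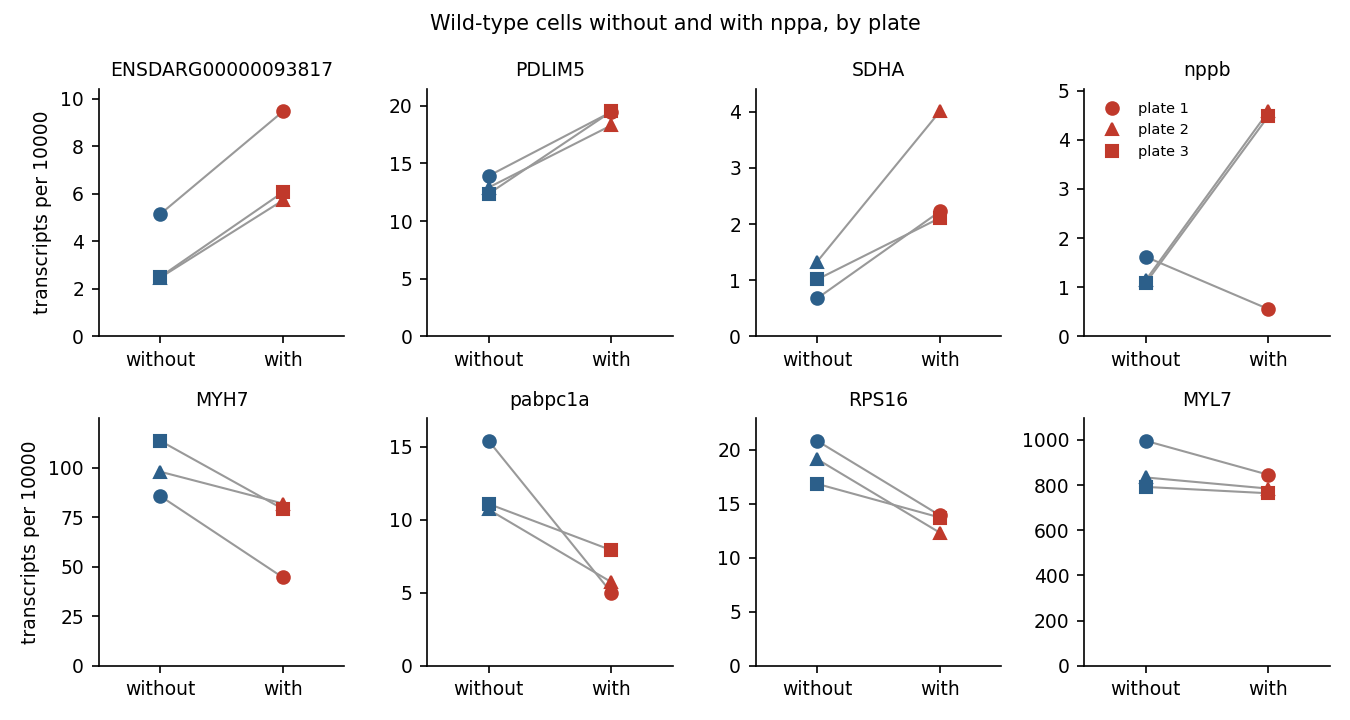
Level in transcripts per 10000 of 8 genes in wild-type cells without (blue) and with nppa (red), with a line per plate. The 3 genes shown first in each row are those with the smallest p in their direction, with all 3 lines pointing the same way, and nppb and MYL7 stand last; nppb has 1 line pointing down.

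The remaining named genes were sparse or small in difference. On the higher side were adprhl1 (log2 fold change 0.80), a cardiac relative of ADP-ribosylhydrolases, NAMPT (ENSDARG00000030598; 1.19), the salvage enzyme of NAD, PPP1CB (1.25), a catalytic subunit of protein phosphatase 1, and foxo3b (1.08), a forkhead transcription factor. PPP1CB rested on 18 transcripts with nppa and passed the filter through that side alone, which favours a high fold. On the lower side were ENSDARG00000077402 (-1.06), ENSDARG00000062236 (-0.66), lgals2a (-1.10), a galectin, and kcnj14 (-0.97), an inward rectifier potassium channel. ENSDARG00000077402 passed the filter through the side without nppa alone, which favours a negative sign. Of these 8 genes, adprhl1 and ENSDARG00000062236 exceeded 3 transcripts per 10000 on average on both sides.

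The natriuretic peptide nppb, which the split did not use, stayed below the filter. It stood at 0.556, 4.58 and 4.48 transcripts per 10000 with nppa and at 1.62, 1.14 and 1.08 without it. It was higher with nppa in plates 2 and 3, about 4-fold, and lower in plate 1, where the side with nppa rested on 1 nppb transcript in 18 cells. The mean difference of 1.92 ± 2.59 (SD, n = 3) was smaller than its SD over plates (exact sign-flip permutation p = 0.5, two-sided). In a fit with no filter, scaled to library totals, the log2 fold change of nppb was 1.47 (SE 0.48; edgeR adjusted p = 0.958). Without plate 1, nppb passed the filter and was called, with a log2 fold change of 1.98 (edgeR adjusted p = 0.0151). Plate 1 was the only wild-type plate on its flow cell, which also held mutant plates 1 and 2. Within the wild-type plates, plate and flow cell therefore cannot be told apart. With 10 other seeds the mean difference lay between 0.229 and 1.75, below the 1.92 of the first draw each time. Levels of nppb did not follow the number of nppa transcripts alike in these plates. Cells with 0, 1 and 2 or more held 1.62, 0 and 1.67 in plate 1, and 1.14, 5.93 and 0 in plate 2. In plate 3 they held 1.08, 1.54 and 10.87. An nppb transcript was seen in 1, 8 and 6 cells with nppa (5.56%, 22.9% and 15.8%) and in 9, 13 and 12 cells without it (12.2%, 8.23% and 8.11%). On the side with nppa 1 cell held 4 of 16 nppb transcripts in plate 2, and 1 cell held 7 of 17 in plate 3.

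In the mutant plates nppb stood at 3.52, 9.30, 0.455 and 4.42 with nppa and at 1.39, 1.22, 0.887 and 2.47 without it. It was higher with nppa in 3 of 4 plates, by 2.93 ± 3.62 on average (SD, n = 4; exact permutation p = 0.25, where 0.125 is the smallest possible). The highest level, in mutant plate 2, rested on 26 nppb transcripts, of which 1 cell held 17. In the main fit of mutant plates nppb was not called. It was called with ENSDARG00000080337 left out, a setting chosen after seeing the data (log2 fold change 1.53, edgeR adjusted p = 0.0218). The difference between genotypes was 1.01 transcripts per 10000 (exact permutation p = 0.771, two-sided).

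Of a list of 20 markers of stressed or border zone muscle, nppb among them, 3 passed the filter and none was called. Their log2 fold changes were 0.44 for acta2, the smooth muscle actin that embryonic and stressed cardiomyocytes also use, -0.25 for ldb3a, a Z-disc protein, and -0.16 for MUSTN1, whose sign turned in the median of 10 other seeds (0.34). Summed over the 20 genes, the list stood at 33.4, 18.02 and 15.8 transcripts per 10000 with nppa and 22.6, 14.2 and 13.99 without it, higher in each plate and overlapping. A gene of this list below the filter, TAGLN (ENSDARG00000045408), the actin-binding protein transgelin, was singled out after its values were seen: 6.68, 2.003 and 0.791 with nppa against 0.676, 0.506 and 0.203 without it. It rested on 22 transcripts with nppa, of which 1 cell held 10 in plate 1 and 1 cell held all 7 in plate 2. The sum over the list includes nppb, acta2 and TAGLN, and other members below the filter went both ways. HSPB8 was also higher with nppa in each plate (1.67, 0.572 and 0.791 against 0.405, 0.316 and 0.405). The gene xirp1 was lower in each plate (1.11, 0.286 and 1.05 against 2.03, 0.949 and 1.42).

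The gene lists behind heart muscle function showed no called member in either direction, beside 0.0% of all genes. Medians of lists with at least 3 tested genes lay between -0.16 and 0.21, and that of all 528 genes was -0.01. Of the list of TCA cycle genes, which oxidise acetyl-CoA in mitochondria, 20 were tested, 15 had a positive sign and the median log2 fold change was 0.16. Of the list of fatty acid use, 14 were tested and 9 were positive, with a median of 0.21. Medians in plates 1, 2 and 3 were 0.41, 0.20 and -0.04 for the TCA cycle and 0.14, 0.42 and -0.13 for fatty acids, so that plate 3 went the other way in both. With 10 other seeds the TCA cycle median lay between -0.05 and 0.15 and the fatty acid median between -0.03 and 0.22. Of all 528 genes tested 48.9% were positive.

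Genes of the respiratory chain coded in the nucleus numbered 71, with 31 positive and a median of -0.02. Genes of the cytosolic ribosome also numbered 71, with 24 positive and a median of -0.04. Their medians in plates 1 to 3 were -0.17, -0.095 and 0.05. Over the 10 other seeds the ribosomal median lay between -0.11 and -0.02. Thick filament genes (7 tested, 3 positive) had a median of -0.06 and thin filament genes (9 tested, 5 positive) 0.08. LMOD2 (ENSDARG00000045864), a regulator of thin filament length, was the thin filament gene with the smallest p, at a log2 fold change of 0.56, and ACTA1 (ENSDARG00000055618), a skeletal-type actin, had 0.17.

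Glycolysis genes (14 tested, 6 positive) had a median of -0.05, with TPI1 (ENSDARG00000040988), triosephosphate isomerase, at -0.25. Genes of calcium handling and conduction (6 tested, 4 positive) had 0.10, with the calsequestrins CASQ2 at 0.25 and CASQ1 (ENSDARG00000018105) at -0.45. Genes of oxygen storage and creatine use (6 tested, 4 positive) had 0.07, with the creatine kinases ckma at -0.19 and CKB (ENSDARG00000043257) at 0.13. Immediate early and heat shock genes (6 tested, 3 positive) had 0.02, with HSPB1 at 0.27 and hsp70l at 0.43. Genes of the non-muscle cytoskeleton (7 tested, 4 positive) had 0.04, with the tubulin gene tubb4b at 0.48 and the profilin gene PFN2 at -0.26. Further list members named by the rule were ECI1, an enzyme of unsaturated fatty acid oxidation, at 0.92, and SDHD (ENSDARG00000030139), a membrane subunit of succinate dehydrogenase, at 0.64. The lists of cardiac transcription factors and of high mobility group proteins had 2 tested genes each, with 1 and 2 positive. Lists of cell cycle, growth signalling and proteasome genes had 0 tested members.

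**Figure D4:**
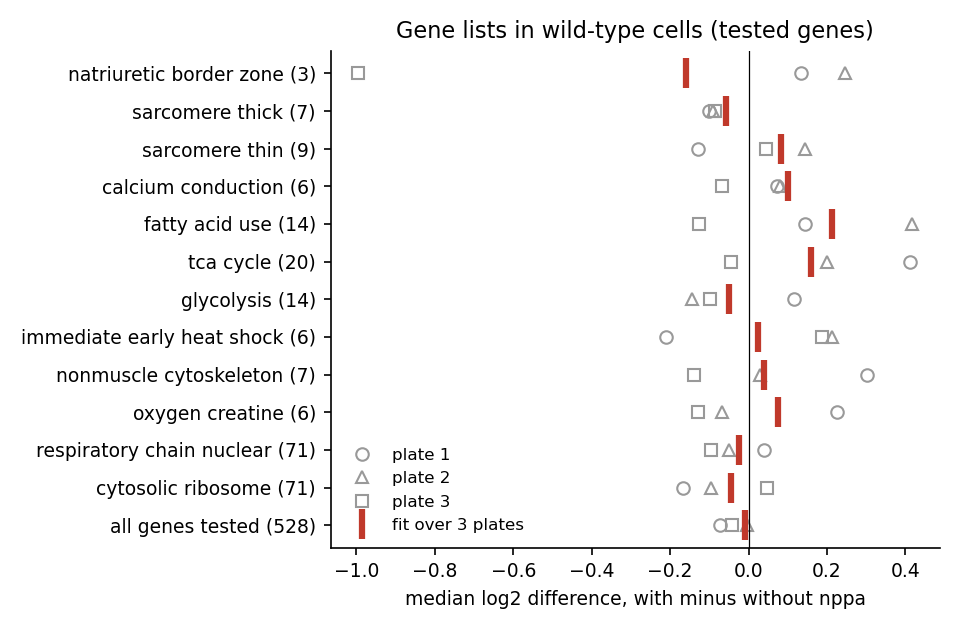
Median log2 difference (with minus without nppa) of the tested genes of each list with at least 3 tested genes, their number in brackets; red bars are the medians of the fit over 3 plates and open symbols the medians within a plate. Plates scatter on both sides of 0 for all lists but the thick filament list, whose plate medians lie between -0.10 and -0.08, and the row of all genes tested.

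Markers of blood and endothelial cells were at or near 0 on both sides. Over the 91 cells with nppa, 0 transcripts fell on 11 endothelial genes, 0 on 5 thrombocyte genes, 0 on 4 erythrocyte genes and 1 on 19 leukocyte genes. Over the 380 cells without nppa it was 7, 2, 0 and 20, with cdh5 at 0 on both sides and ptprc at 0 with nppa. Fibroblast and epicardial genes summed to 2.78 to 3.95 transcripts per 10000 with nppa and 2.36 to 2.59 without it, higher in all 3 plates. These were mostly podxl and krt8, and col1a1a was at 0. The gene krt8 was lower with nppa in plates 1 and 2 (0 and 0.572 against 0.676 and 0.633). SPARC held 0 transcripts with nppa and 11 without it. Smooth muscle genes summed to 8.96 to 23.4 with nppa and 6.01 to 8.65 without it, higher in all 3 plates. These transcripts fell on DES, acta2 and TAGLN, and 1 on MYH11, the smooth muscle myosin heavy chain, on the side without nppa. The other 5 genes of this list were at 0. Both acta2 and TAGLN also count in the border zone sum above. In plate 3 acta2 was lower with nppa (0.791 against 1.69), while DES was higher (7.38 against 5.41). The part of smooth muscle or other cells in the differences above was not tested.

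The gene mutated in the hmga1a-/- fish (ENSDARG00000028335) makes a high mobility group protein that binds chromatin. In wild-type cells it stood at 0.556, 2.29 and 0.264 transcripts per 10000 with nppa and at 0, 1.39 and 0.811 without it. It was higher with nppa in 2 of 3 plates and resolved no difference (mean difference 0.302 ± 0.755, SD, n = 3; exact permutation p = 0.5). Mean levels in mutant cells were 0.345 with nppa and 0.237 without it, below both wild-type means of 1.04 and 0.734; this difference was not tested here.

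The same contrast in mutant plates tested 492 genes and called 1 (0.203%), ENSDARG00000080337, with a log2 fold change of -0.81 (SE 0.13; edgeR adjusted p = 0.0109). The gene was called in 1 of 10 other seeds. Its call was lost without mutant plate 1 (edgeR adjusted p = 0.0542), without mutant plate 3 (edgeR adjusted p = 0.603) and without plate as a block (edgeR adjusted p = 0.998). Summed levels were lower with nppa in each mutant plate, but the median cell was higher with nppa in plates 2 and 3. In plates 1 to 4 the transcript filled 1.8%, 1.65%, 1.3% and 0.85% of the median cell with nppa. Without nppa it filled 3.55%, 1.6%, 0.95% and 1.6%. In plates 1, 2 and 4 single cells reached 53.5%, 15.1% and 53.3% with nppa. Without nppa they reached 64%, 41% and 51.7%. The part of such cells in the call was not tested. This abundant transcript has no symbol in the name table, so it could not be recognised as mitochondrial or not. In wild-type plates it stood at 498, 177.4 and 320.3 with nppa and at 235.7, 388 and 229.3 without it, with no common sign. Of the 24 genes named in wild-type cells, 17 were tested in mutant cells and 11 had the same sign. That count carries no test and was not set beside the share of all genes. At an unadjusted p under 0.05 by edgeR there was 1 gene of the 17 (6.3% of all genes tested in mutant cells were). That gene was ENO3, at -0.28 (SE 0.10; edgeR adjusted p = 0.706). MYH7 had -0.17 (SE 0.09) and ENSDARG00000093817 0.34 (SE 0.35) in mutant cells. For PDLIM5 the sign differed, with -0.29 (SE 0.15), and pabpc1a stood at 0.05 (SE 0.17).

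A direct test of the difference of the nppa contrast between genotypes, over 603 genes, called 0 (0.0%), with 22 genes at an unadjusted p under 0.05 (3.65%) and a smallest adjusted p of 0.527 by edgeR. PDLIM5 and pabpc1a were among the 22, both with an edgeR adjusted p of 0.527. ENSDARG00000080337 was among them too, at -0.98 (SE 0.32, edgeR adjusted p = 0.527). A difference between the genotypes was therefore not resolved for any gene in this fit. ENSDARG00000080337 was called with 1 other seed (edgeR adjusted p = 0.0314) and without wild-type plate 2 (edgeR adjusted p = 0.00105).

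**Figure D5:**
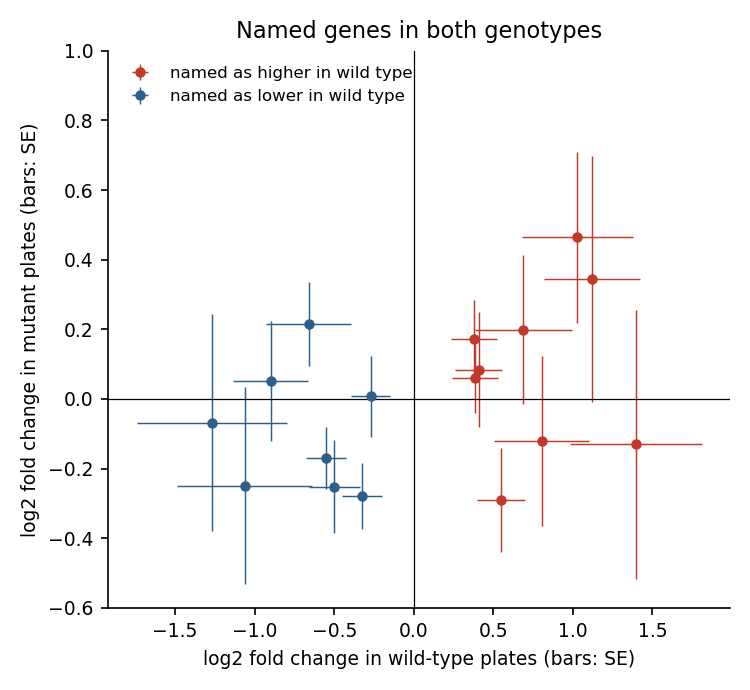
Log2 fold change (with minus without nppa) in mutant plates against that in wild-type plates, with standard errors as bars, for the 17 named genes tested in both. Red genes were named as higher and blue genes as lower in wild-type cells. On the same side of 0 in both genotypes lie 11 of the 17, a count with no test.

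Other settings gave some wild-type calls. On sums of unthinned transcripts 2 of 1133 genes were called (0.177%), with the split on unthinned nppa 1 of 651 (0.154%), and with no filter on low counts 36 of 8805 (0.409%), which became 3 (0.0341%) on library totals. A fit without plate as a block called 0 genes, with 20 (3.79%) at an unadjusted p under 0.05. Without plate 1, 4 of 787 genes were called (0.508%), all higher with nppa, and without plate 3, 8 of 540 (1.48%), of which 4 were higher. The atrial myosin gene myh6 (ENSDARG00000090637) was called in both, and on sums of unthinned transcripts with a log2 fold change of 3.88. In plate 2, 1 cell with nppa held 97.7% of the unthinned myh6 transcripts of that side, 4.76% of its own 7894 transcripts, and plate 1 held 0 on both sides. MYH7, pabpc1a and ATP5F1A were among the calls without plate 3, in the direction given above. MYL7 was among them too, but the rule used it and its level is a description only.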

How the data were processed

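Single cells of 3 wild-type and 4 mutant plates were sequenced by CEL-seq2, which counts transcripts by random molecule barcodes (UMIs), per the labels' protocols. The submitters' processing notes name BWA 0.6.2; the sources used here give neither build nor annotation. The values deposited by the authors are estimated counts per gene and well with 2 decimals. All of the 857630 values above 0 (100%) matched, within 0.0051, a UMI number corrected for saturation of 4096 barcodes, so very abundant genes rest on a correction. The labels state a UMI of 4 bases, while 4096 barcodes correspond to 6 bases, and this was not resolved. Symbols covered 13087 of 16394 genes and are often in human style; near-identical copies may share reads.

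Estimated counts were rounded and thinned without replacement to 1000 per cell (seed 1, Python 3.11.15, numpy 2.4.6), leaving out 91 spike-in rows and 13 genes with a mitochondrial symbol. Mitochondrial genes without such a symbol would have stayed in. No doublet caller was run, since the plates were sorted 1 cell per well. Plates held 350376, 774838 and 717991 wild-type transcripts. Sums per plate and side were tested with edgeR 4.0.16 (TMM, filterByExpr by side, quasi-likelihood F test, plate as block, Benjamini-Hochberg, R 4.3.3); a positive log2 fold change is higher with nppa. The block comes from the design: both sides of a plate share its library. DESeq2 1.42.0 and limma 3.58.1 were alternatives, beside other depths, thresholds, splits, seeds and scalings. The edgeR step was tested on simulated data. Since nppb did not pass the filter, its paired differences were tested by exact sign flips in place of the planned fit. The label text says mCherry and the design text mCitrine for the sorted colour, and 768 cells per genotype are stated where the files hold 1152 and 1536 wells; neither was resolved. Named genes are the 12 in each direction with the same sign in all plates, called first and then by unadjusted p, with MYL7, nppb, hmga1a and the list members with the smallest p, of which 1 is not reported here. The members, lists and rules were chosen with earlier results of these data known.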

Additional observations from a re-analysis of the deposited data

Results flagged for a closer look

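Wild-type wells that were deep enough but below the MYL7 threshold lie outside the comparison, and after thinning they held 13 nppa transcripts. These were in 3 of 28 wells, with 11 of them in 1 well of plate 2.

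In mutant cells without nppa, ENSDARG00000080337 stood at 1014 transcripts per 10000 in plate 1, far from the 506, 493 and 530 of plates 2 to 4. It was picked out by the gap between 1 plate and the others among 19 groups of 4 plates looked at, and chance alone picks out about 1 in 20 such groups.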

How the results depend on the processing

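No alternative or seed turned the sign of MYH7, pabpc1a, PDLIM5 or ENSDARG00000093817 in wild-type cells, while RPS16 turned to 0.0084 in 1 of 10 other seeds. The 0 wild-type calls became 36 with no filter, where the scaling shifted the 528 genes together by -0.39 (values below are relative to it), and 3 with no filter and library totals only. They became 2 on unthinned sums, 1 with the split on unthinned nppa and a median of 0.5 over 10 other seeds (0 to 6), and lay between 0 and 8 when 1 plate was left out. Without the plate as replicate block 0 wild-type genes were called, with 20 at an unadjusted p under 0.05, and the 1 mutant call became 0. Mutant calls were also 0 with library totals only, on UMI numbers, on unthinned sums, at a depth of 2000, with MYL7 of at least 5% and in the median of other seeds. They were 3 with at least 2 nppa transcripts, 3 with the split on unthinned nppa and 3 with no filter and library totals. They were 4 with ENSDARG00000080337 left out, nppb among them, and between 0 and 2 without 1 plate. The 0 calls of the difference between genotypes became 1 with no filter and library totals. They lay between 0 and 1 over other seeds and without 1 plate, and the gene called was ENSDARG00000080337 each time. The share of cells with nppa, 19.4% as the mean of plates, was 37.98% unthinned, 36.4% at a depth of 2000 transcripts, 20.6% on UMI numbers and 17.3% with ENSDARG00000080337 left out. The cause of these and the following shifts was not tested.

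Log2 fold changes that turned sign follow by setting. On unthinned sums they were CASQ2 -0.0075, CASQ1 0.054 and CKB -0.062. With the split on unthinned nppa they were ldb3a 0.17 and MUSTN1 0.31, and over other seeds MUSTN1 0.34. At a depth of 2000 they were ACADVL -0.011, ATP5F1A -0.038, DES -0.059, acta2 -0.36, MUSTN1 0.23, SDHD -0.13, TPI1 0.058 and CKB -0.020. With MYL7 of at least 5% they were ACADVL -0.078, MUSTN1 0.043, CASQ2 -0.15, CASQ1 0.12 and ckma 0.011. With at least 2 nppa transcripts they were ATP5F1A -0.042, MUSTN1 0.012, ACTA1 -0.029, CASQ2 -0.18 and PFN2 0.45. On UMI numbers they were DES -0.21, MUSTN1 0.50 and LMOD2 -0.0084. With ENSDARG00000080337 left out they were ENO3 0.11, AK1 0.016, SDHD -0.55 and HSPB1 -0.0088. Without 1 plate, acta2 lay between -0.023 and 0.86, MUSTN1 between -0.39 and 0.21, PFN2 between -0.63 and 0.032 and CKB between -0.14 and 0.32.

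Differences in transcripts per 10000 also turned. For TAGLN they were -0.163 on UMI numbers, -0.0362 with MYL7 of at least 5% and -0.383 with ENSDARG00000080337 left out, where hmga1a had -0.221 and myh6 -1.17. At a depth of 2000 myh6 had -1.99. For ENSDARG00000080337 itself they were -28.9 with the split on unthinned nppa, -13.9 with at least 2 nppa transcripts and between -59.7 and 176.9 without 1 plate. The difference in mitochondrial share lay between -0.217 and 0.397 percentage points without 1 plate.

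List medians moved past their spread between plates. The thick filament list, whose spread was very small, had 0.037 with no filter, 0.035 with no filter and library totals, -0.025 with library totals only, -0.11 with DESeq2, -0.12 with limma, -0.046 on UMI numbers, 0.24 on unthinned sums, -0.074 with at least 2 nppa transcripts, -0.066 with the split on unthinned nppa, -0.067 with MYL7 of at least 5%, -0.036 at a depth of 2000, -0.092 over other seeds and -0.13 to -0.083 without 1 plate. The calcium list had -0.012 on UMI numbers, -0.12 on unthinned sums, -0.32 with at least 2 nppa transcripts, -0.024 with the split on unthinned nppa, -0.14 at a depth of 2000, 0.00039 without wells rich in myh6, -0.096 with ENSDARG00000080337 left out, -0.080 over other seeds and -0.043 to 0.17 without 1 plate. With at least 2 nppa transcripts the thin filament list had -0.13, the TCA cycle -0.088, glycolysis -0.37 and heat shock genes 0.31. At a depth of 2000 the TCA cycle had -0.11, glycolysis had 0.18 with the split on unthinned nppa, and the non-muscle cytoskeleton had 0.32 with MYL7 of at least 5%. Without 1 plate the border zone list lay between -0.19 and 0.54, glycolysis between -0.11 and 0.11 and heat shock genes between -0.012 and 0.30.

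Depth limits the side with nppa: its 3 libraries hold 17974 to 37934 transcripts, most positive cells rest on 1 nppa molecule, and a gene needed about 1.79 transcripts per 10000 to be tested. Leaving out wells rich in myh6, leaving out ENSDARG00000080337 and the fit with no filter and library totals only were chosen after seeing the data, as were, for mutant cells and the difference between genotypes, all alternatives but DESeq2, unthinned sums, no filter, other seeds and leaving out a plate. Scaling, filter, block and limma alternatives gave no paired difference for nppb, since that value uses none of them.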
